A study of Mus musculus with 20 samples.

Results

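The change of expression in untreated Hepa1-6 cells between 0 h and 10 h was taken from 4 arrays of 20: the 2 arrays whose titles give basal cells at 0 h and the 2 that give basal cells at 10 h. Hepa1-6 is an established mouse hepatoma line of C57L origin. After washing, the cells were kept in growth-factor-free medium from 4 h ahead of time 0, so 0 h already stands for 4 h in that medium, and the comparison holds the net change over a further 10 h. No agent was added to these cultures. The other arrays hold untreated cells at 1, 3 and 6 h and cells given 1 ng/ml of the cytokine TGFβ1 for 0, 1, 3, 6 and 10 h, with 2 arrays in each of the 10 groups. The labels call the duplicates biological without further detail, and p-values measure the spread between these duplicates alone. A single tumour line stands here for liver epithelium, and since no array holds cells kept in full medium, time in the dish and loss of growth factors cannot be told apart.

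The serum in which such cells are grown carries growth factors, lipoproteins, metals and hormones, and cells that lose it turn over the transcripts these signals had kept up. Cholesterol synthesis is run by SREBP2, a membrane-bound factor released when sterols in the endoplasmic reticulum are low. Metallothioneins are small proteins that bind zinc and copper, and their genes are switched on by the zinc-sensing factor MTF1. Entry into DNA replication is run by the E2F factors, which the retinoblastoma family holds back in cells without mitogens.

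Each gene was represented by the probe set with the highest mean over all 20 arrays, which gave 18193 genes. Values are log2 levels from RMA, on which a difference of 1 is a 2-fold change, and RMA puts each difference on a scale set by the rest of the array. The duplicates of each of the 10 groups correlated at 0.9958 to 0.9971. The liver label was checked on hepatocyte markers, of which 6 of 11 lay above the median gene level of 6.31. A median puts about as many genes above it as below, so this count does not set these markers apart from genes in general. Alb, a marker, and Afp, which is outside the marker list, lay at 11.90 and 12.91 at 0 h. They are the genes of adult and fetal serum albumins. Several hepatocyte genes were dim, among them Apob, at a mean of 4.57 at 0 h. The values carry no detection call, so a fold that starts or ends at a dim level is a difference of RMA values whose true size is uncertain. Markers of leukocytes and of endothelial cells lay above the median in 1 of 12 genes each, those of stellate cells in 2 of 12, those of cholangiocytes in 4 of 8 and those of erythroid cells in 0 of 5. The mean level of the hepatocyte markers was 7.03 to 7.06 at 0 h and 7.27 to 7.34 at 10 h. That of the erythroid markers, all of them dim, was 4.39 to 4.47 and 4.66 to 4.70, with 1 of the 5 called, Epor, the erythropoietin receptor (higher by 0.56, but by 0.12 and not called with the treated 0 h arrays as baseline, adjusted p = 0.645), and that of the endothelial markers was 4.41 to 4.45 and 4.47 to 4.60, with none called. The means of the stellate cell markers (5.28 to 5.29 and 5.28 to 5.33) and of the cholangiocyte markers (6.58 to 6.62 and 6.60 to 6.65) overlapped between the 2 times. The part of these shifts in the results was not tested.

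By limma, fitted to all 20 arrays with Benjamini-Hochberg adjustment over all genes, 4742 of 18193 genes (26.1%) differed between 10 h and 0 h at an adjusted p under 0.05. Of all genes, 2411 (13.3%) were higher at 10 h and 2331 (12.8%) were lower. Most changes were small: the median size among the called genes was 0.38 on the log2 scale, the smallest was 1.074-fold, and 160 genes (72 higher and 88 lower) changed by 2-fold or more. Over all genes the median difference was 0.03, and 9 in 10 genes lay between −0.45 and 0.47. All 4742 called genes had both arrays at 10 h beyond both arrays at 0 h, which a test at this threshold nearly requires. The share of members called in each gene list below is read against 13.3% higher and 12.8% lower. In a culture measured in bulk, fewer cells with a transcript and less transcript per cell cannot be told apart.

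**Figure D1:**
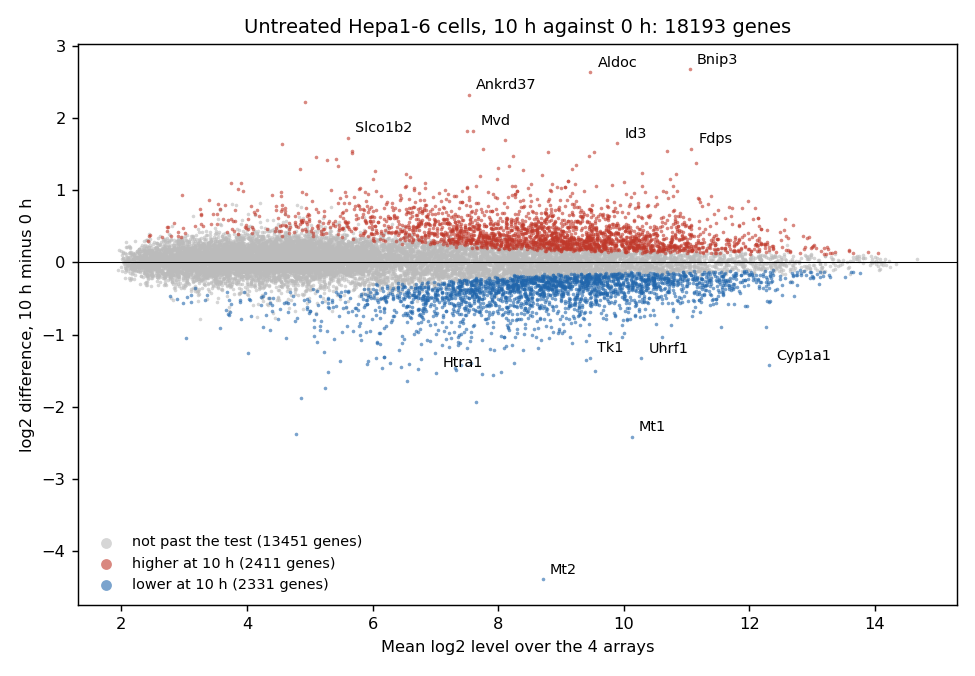
Log2 difference between 10 h and 0 h in untreated cells (y axis) against the mean log2 level over the 4 arrays (x axis), 1 point per gene, coloured by the limma call at adjusted p under 0.05. Mt2 and Mt1 lie far below all other bright genes, Bnip3, Aldoc and Ankrd37 lie highest, and most of the 4742 called genes lie within 1 log2 unit of 0.

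The largest change of any gene was the fall of metallothionein. Mt2 stood at 10.77 and 11.03 at 0 h and 6.31 and 6.72 at 10 h, a 21-fold fall (log2 difference −4.39 ± 0.24 SE, adjusted p = 5.03e-11). Mt1, its neighbour on chromosome 8, stood at 11.19 and 11.47 at 0 h and 8.91 and 8.92 at 10 h, a 5.33-fold fall (−2.42 ± 0.20 SE, adjusted p = 1.11e-08). Mt2 ended near the median gene level and Mt1 above it, and no array at 10 h came within 2 log2 units of the arrays at 0 h. A second and dimmer probe set of Mt1 differed by 0.15 and was not called, so the fall of Mt1 rests on 1 of its 2 probe sets, and Mt2 has a single one. The 2 transcripts are alike in sequence, and how well their probes tell them apart was not tested. The fall came after 1 h and went on to 10 h: the log2 differences from 0 h of Mt2 were 0.04, −0.90 and −2.68 at 1, 3 and 6 h, and those of Mt1 were 0.07, −0.62 and −1.58.

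Genes that bring zinc into the cytosol went the other way. Slc39a4, which encodes the zinc importer ZIP4, rose from 10.31 and 10.20 at 0 h to 11.36 and 11.27 at 10 h (2.09-fold, adjusted p = 2.66e-11). Slc39a10, which encodes the importer ZIP10, stood at 11.12 and 11.16 at 0 h and 11.88 and 11.86 at 10 h and rose 1.66-fold (adjusted p = 1.95e-10). Slc30a1, the exporter ZnT1, was dim, at 5.23 and 4.80 at 0 h and 5.82 and 5.35 at 10 h, and its difference of 0.57 passed narrowly (adjusted p = 0.0431). Without 10 h replicate 1 it was 0.34 and without 0 h replicate 2 it was 0.36 (adjusted p = 0.414 and 0.379), so that call rests on single arrays. The second probe set of Slc30a1 differed by −0.44 without a call, and by limma the mean of its 2 probe sets differed by 0.07 (adjusted p = 0.833). With the treated 0 h arrays as baseline its difference was 0.12 (adjusted p = 0.772). Of the 9 measured genes of metal handling, 5 rose, Slc30a1 among them, and 2 fell, the 2 being Mt1 and Mt2, with a median of 0.57.

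Because MTF1 binds metal response elements, the 250 bases before the RefSeq starts of the 2 metallothionein genes are shown (GRCm38.p6, plus strand, 5′ to 3′), with each match to the core TGCNCNC, on either strand, in capitals. The window of Mt1 is chr8:94178839-94179088 and that of Mt2 is chr8:94172368-94172617.
Mt1: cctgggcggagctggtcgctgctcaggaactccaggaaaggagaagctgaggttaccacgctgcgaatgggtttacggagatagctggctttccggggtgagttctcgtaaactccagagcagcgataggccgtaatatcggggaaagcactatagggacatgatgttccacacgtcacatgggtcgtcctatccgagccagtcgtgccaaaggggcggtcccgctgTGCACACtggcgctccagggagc
Mt2: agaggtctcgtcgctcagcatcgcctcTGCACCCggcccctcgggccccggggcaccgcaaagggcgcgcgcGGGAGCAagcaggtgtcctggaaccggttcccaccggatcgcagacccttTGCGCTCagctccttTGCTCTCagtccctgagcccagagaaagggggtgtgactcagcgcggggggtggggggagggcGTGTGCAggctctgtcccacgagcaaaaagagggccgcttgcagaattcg
In these windows Mt2 held 5 matches and Mt1 held 1. Bases outside the windows were not searched, so the counts do not compare the whole promoters. Whether the RefSeq starts are the ones used in these cells was not tested. At least 1 match is common, in 44.4% of the 32851 promoter windows in the table, but only 0.344% held 5 or more. Of the 7 metal handling genes with a window, 5 held a match (71.4%, against 47.2% of all 27025 genes). A match is a string of letters and does not show that a factor binds it.

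**Figure D2:**
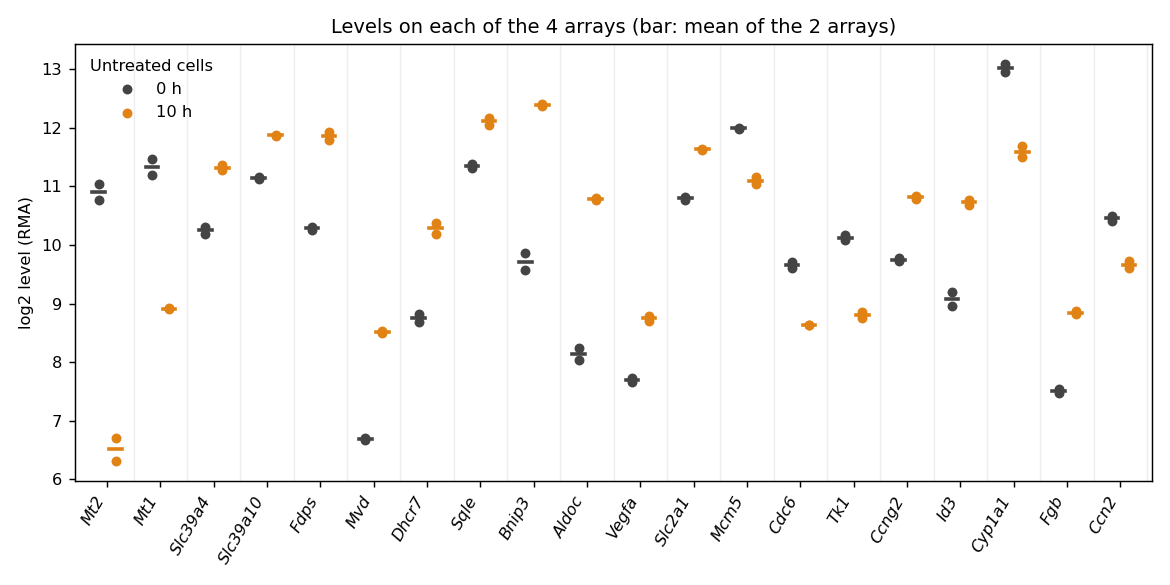
Log2 levels of 20 genes named in the text on each of the 4 arrays of untreated cells, grey for 0 h and orange for 10 h, with a bar at the mean of the 2 arrays. The 2 times do not overlap for any of these genes, which were chosen from those past the test, and the gap is widest for Mt2.

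Cholesterol synthesis had the highest share of rises of the 40 gene lists. In the list of sterol enzymes and further SREBP2 targets, with 24 genes measured, 20 rose and 2 fell, and the median difference was 0.88. Mvd, which makes isopentenyl diphosphate from mevalonate diphosphate, rose from 6.67 and 6.71 at 0 h to 8.50 and 8.53 at 10 h (3.55-fold, log2 difference 1.83 ± 0.18 SE, adjusted p = 1.04e-07). Fdps, which makes farnesyl diphosphate, rose from 10.31 and 10.26 at 0 h to 11.93 and 11.79 at 10 h (2.99-fold, 1.58 ± 0.06 SE, adjusted p = 8.03e-13). Its other, dimmer probe set differed by 0.16 and was not called. Dhcr7, which carries out the last step to cholesterol, stood at 8.69 and 8.83 at 0 h and 10.18 and 10.38 at 10 h and rose 2.87-fold (adjusted p = 2.44e-12). In all 3 genes, both late arrays lay more than 1 log2 unit above both early ones.

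The rise ran along the pathway. Among the early steps, Pmvk, which phosphorylates phosphomevalonate, rose by 1.47, and Hmgcs1, which makes HMG-CoA, by 0.55. Sqle, the squalene oxidase that commits carbon to sterols, rose by 0.76. Among the later steps, Tm7sf2, a sterol reductase, rose by 1.70, and Nsdhl, which removes a methyl group from the ring, by 1.53. Srebf2, the gene of SREBP2 itself, rose by 0.57 (adjusted p = 4.92e-07). Insig1, whose protein holds SREBP2 back and whose gene SREBP2 switches on, was not past the test at 10 h, at 8.23 and 8.08 at 0 h and 8.21 and 8.50 at 10 h (adjusted p = 0.102), although it had been higher than at 0 h by 0.48 at 6 h (adjusted p = 2.76e-04). Without 10 h replicate 1, the difference of Insig1 at 10 h was 0.35 and passed (adjusted p = 0.00888). The 2 genes that fell, Abca1 and Abcg1, encode cholesterol exporters that oxysterols switch on through the receptor LXR. No list of LXR targets was counted, so these 2 falls do not stand for such targets in general. Abca1 fell from 10.56 and 10.72 at 0 h to 10.17 and 10.14 at 10 h (1.40-fold) and Abcg1 from 7.84 and 8.0 at 0 h to 7.13 and 7.41 at 10 h (1.57-fold).

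For a look at the control region of these genes, the windows of Hmgcs1 (chr13:119690101-119690350) and Idi1 (chr13:8885356-8885605), an isomerase of the same pathway, are shown (250 bases before the start, GRCm38.p6, plus strand), with the sterol element core TCACNCCAC and the NF-Y core CCAAT in capitals on either strand.
Hmgcs1: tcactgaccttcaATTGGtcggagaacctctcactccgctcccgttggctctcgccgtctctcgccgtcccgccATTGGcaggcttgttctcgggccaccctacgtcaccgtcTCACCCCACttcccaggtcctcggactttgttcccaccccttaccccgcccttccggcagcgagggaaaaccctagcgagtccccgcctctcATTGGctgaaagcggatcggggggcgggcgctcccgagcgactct
Idi1: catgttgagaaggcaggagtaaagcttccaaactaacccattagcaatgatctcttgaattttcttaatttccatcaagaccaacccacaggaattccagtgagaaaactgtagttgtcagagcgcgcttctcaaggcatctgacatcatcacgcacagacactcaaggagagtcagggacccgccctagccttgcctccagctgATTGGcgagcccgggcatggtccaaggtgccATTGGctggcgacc
Hmgcs1 held 1 sterol core and 3 NF-Y cores, and Idi1 held 2 NF-Y cores and no sterol core. NF-Y cores were common in the list: 17 of the 19 sterol genes with a window had one (89.5%), against 37.5% of all genes. In the G2 and mitosis list, which had no common direction, 25 of the 33 genes with a window also held this core (75.8%). Whether genes with the core rose more often than others was not tested. The strict sterol core was rare, in 1 of the 19 (5.26%) and in 1.22% of all genes, and the looser forms that SREBP2 also binds were not searched.

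Genes of fatty acid synthesis were higher too. Among 24 measured genes 15 rose and 1 fell, and the median difference was 0.30. Acss2, which turns acetate into acetyl-CoA, rose from 6.60 and 6.59 at 0 h to 8.36 and 8.47 at 10 h (3.53-fold, adjusted p = 4.09e-09). The desaturase gene Fads2 rose from 9.29 and 9.29 at 0 h to 10.30 and 10.40 at 10 h (2.10-fold), and Scd1, the stearoyl-CoA desaturase, 1.53-fold. Elovl6, an elongase, rose 1.74-fold, and Fasn, the fatty acid synthase, 1.22-fold. For Fasn, the level at 6 h had been higher than at 10 h (log2 difference between 10 h and 6 h −0.40, adjusted p = 7.00e-05).

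Most genes of fat burning did not pass the test. Among 23 genes of fatty acid oxidation and PPARA targets, 7 rose (30.4%, against 13.3% of all genes) and 3 fell (13%, against 12.8%). The median was 0.16, and the 13 others differed by −0.14 to 0.73 without passing the test. With the treated 0 h arrays as the baseline, 4 members were called higher and 5 lower. Slc25a20, the carnitine carrier, rose by 0.49 and Acadm, a mitochondrial acyl-CoA dehydrogenase, by 0.32. The 3 falls became 1 without either array at 10 h. Angptl4, a secreted inhibitor of lipoprotein lipase and a known PPAR target, fell from 8.23 and 8.20 at 0 h to 7.43 and 7.54 at 10 h (1.66-fold).

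Genes that answer to low oxygen gave the 3 largest rises of any gene. Bnip3, which marks mitochondria for removal, rose from 9.86 and 9.57 at 0 h to 12.41 and 12.37 at 10 h (6.38-fold, log2 difference 2.67 ± 0.09 SE, adjusted p = 3.31e-14). Aldoc, a glycolytic aldolase, rose from 8.25 and 8.05 at 0 h to 10.77 and 10.80 at 10 h (6.21-fold, 2.63 ± 0.08 SE, adjusted p = 1.08e-14). Ankrd37, a known target of the oxygen-sensitive factor HIF1, rose from 6.51 and 6.22 at 0 h to 8.87 and 8.51 at 10 h (5.00-fold, adjusted p = 2.58e-10). The 2 late arrays of each gene lay more than 1.5 log2 units above its early arrays.

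Of the 30 measured genes of glycolysis and the hypoxia response, 19 rose and 0 fell, with a median of 0.33. Without 0 h replicate 2, 2 members were called lower. P4ha1, a prolyl hydroxylase of collagen, rose 2.44-fold, and its relative P4ha2 2.12-fold. Vegfa, the angiogenic growth factor, rose from 7.72 and 7.67 at 0 h to 8.71 and 8.79 at 10 h (2.08-fold), Slc2a1, the glucose transporter GLUT1, 1.79-fold, and Hk2, a hexokinase, 1.63-fold. The core enzymes of the lower pathway moved little: Pgk1 rose 1.14-fold and Ldha, the lactate dehydrogenase, 1.12-fold. Ak4, a mitochondrial adenylate kinase outside the list, rose from 7.56 and 7.44 at 0 h to 8.97 and 8.98 at 10 h (2.78-fold). At 6 h, 16 of the 30 genes were already higher than at 0 h and 3 were lower, where 10.4% of all genes were higher and 10.3% lower. Between 6 h and 10 h, 15 of the 30 were higher at the later time and 0 were lower, where 2.78% of all genes were higher. Ankrd37 was not among the 15: its difference from 0 h was 2.32 at 6 h and 2.32 at 10 h.

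The promoters of Bnip3 and Ankrd37 are shown because the core of the HIF element, ACGTG, stands in them (250 bases before the start, GRCm38.p6, written 5′ to 3′ on the minus strand, on which both genes lie; matches on either strand in capitals). This motif was added after the values had been seen, and it overlaps the E-box CACGTG. The window of Bnip3 is chr7:138909507-138909756 and that of Ankrd37 is chr8:45999851-46000100.
Bnip3: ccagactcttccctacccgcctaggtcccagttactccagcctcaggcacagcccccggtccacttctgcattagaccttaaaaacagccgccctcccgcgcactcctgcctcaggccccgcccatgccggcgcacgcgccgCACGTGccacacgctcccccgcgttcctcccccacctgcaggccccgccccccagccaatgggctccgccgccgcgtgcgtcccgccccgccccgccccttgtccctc
Ankrd37: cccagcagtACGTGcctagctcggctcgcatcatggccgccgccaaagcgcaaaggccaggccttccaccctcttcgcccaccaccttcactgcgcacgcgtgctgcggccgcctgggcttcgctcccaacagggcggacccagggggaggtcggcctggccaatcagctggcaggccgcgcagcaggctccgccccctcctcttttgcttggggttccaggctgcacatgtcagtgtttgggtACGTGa
In Bnip3 the 2 matches are the 2 strands of 1 palindrome, whereas Ankrd37 held 2 separate ones. Of the 29 genes of the list with a window, 19 held the core (65.5%), against 18.5% of all genes. Of these 19, 5 did not pass the test.

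DNA replication genes fell nearly as one. Of 40 measured genes of the G1/S step and DNA replication, 35 fell and 2 rose, with a median of −0.44, with 1 rise called when any 1 of the 4 arrays was left out. Tk1, the thymidine kinase of S phase, fell from 10.17 and 10.08 at 0 h to 8.75 and 8.85 at 10 h (2.50-fold, adjusted p = 6.92e-11). Uhrf1, which carries DNA methylation through replication, fell from 10.91 and 10.97 at 0 h to 9.62 and 9.60 at 10 h (2.50-fold, adjusted p = 1.48e-11). Cdc6, which loads the helicase onto origins, fell from 9.71 and 9.61 at 0 h to 8.63 and 8.63 at 10 h (2.04-fold). The helicase subunits Mcm5 and Mcm2 fell 1.86-fold and 1.46-fold, and Rrm2, the ribonucleotide reductase subunit, 1.52-fold. E2f1 itself, one of the 2 genes that rose, went from 8.04 and 7.93 at 0 h to 8.64 and 8.56 at 10 h (1.53-fold), although the mean of its probe sets differed by 0.19 and did not pass the test (adjusted p = 0.0803). Dnmt3b, a DNA methyltransferase outside the list, fell from 8.02 and 8.07 at 0 h to 6.49 and 6.67 at 10 h (2.76-fold).

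Part of the fall was in place by 6 h. At that time 18 of the 40 genes were lower than at 0 h and 1 was higher, where 10.3% of all genes were lower, and 27 of the 40 were lower at 10 h than at 6 h, where 3.4% of all genes were lower. Tk1 had a log2 difference from 0 h of −0.65 at 6 h, about as large as its further change to 10 h (−0.67), whereas Cdc6, at −0.18, did not pass the test at 6 h (adjusted p = 0.0968). The promoter of Mcm5 (chr8:75109259-75109508, GRCm38.p6, plus strand) holds both E2F sites that were searched, TTTGGCGC and TTTCGCGC, as overlapping matches on opposite strands, shown in capitals.
Mcm5: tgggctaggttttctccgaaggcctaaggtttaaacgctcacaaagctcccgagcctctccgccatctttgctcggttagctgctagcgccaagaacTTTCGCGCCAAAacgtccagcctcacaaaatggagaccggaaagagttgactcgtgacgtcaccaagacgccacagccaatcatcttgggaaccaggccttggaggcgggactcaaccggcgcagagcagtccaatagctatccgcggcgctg
Of the 34 replication genes with a window, 3 held the first site (8.82%, against 0.485% of all genes) and 5 held the second (14.7%, against 0.300%).

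Mitosis genes had no common direction. Of 41 measured genes of G2 and mitosis, 10 fell and 8 rose, and the median was −0.07. Ccna2, the cyclin of S phase and G2, fell from 10.97 and 10.98 at 0 h to 10.41 and 10.42 at 10 h (1.47-fold), Birc5, survivin, 1.44-fold, and Nek2, a centrosome kinase, 1.46-fold. Aurkb, a kinase of chromosome segregation, fell 1.23-fold and Mki67, the marker of cycling cells, 1.27-fold. The rises were small, the largest at 0.39, and 4 members were called higher when the probe sets of each gene were averaged. The CDK inhibitors and quiescence genes went up, with 12 of 22 higher, 1 lower and a median of 0.41. Ccng2, an unusual cyclin of arrested cells and a FOXO target, rose from 9.72 and 9.78 at 0 h to 10.79 and 10.83 at 10 h (2.09-fold, adjusted p = 4.63e-12), and Btg2, an antiproliferative gene, 1.87-fold. Cdkn2b, Cdkn1a and Cdkn1b, which encode the inhibitors p15, p21 and p27, rose 1.62-fold, 1.60-fold and 1.34-fold. The 1 gene that fell, Rbl1, encodes the pocket protein p107, which cycling cells make (from 10.27 and 10.26 at 0 h to 9.23 and 9.35 at 10 h, 1.97-fold). In the histone list, 1 of 5 measured genes passed the test, H2az1, which encodes a variant histone and was 1.28-fold lower.

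Genes of ribosome production fell. In the list of 40 nucleolar genes 21 fell and 0 rose, with a median of −0.21. Without 0 h replicate 1, 2 members were called higher, and without 10 h replicate 1, 1 was. Ubtf, a factor of RNA polymerase I, fell from 9.94 and 9.97 at 0 h to 8.94 and 8.96 at 10 h (2.01-fold, adjusted p = 1.97e-10). Odc1, the first enzyme of polyamine synthesis and a MYC target, fell 1.52-fold, Nhp2, a box H/ACA protein, 1.37-fold, and Fbl, fibrillarin, 1.28-fold. Of 32 mitochondrial genes 9 fell and 4 rose, with a median of −0.04 and 2 rises without 0 h or 10 h replicate 2. Uqcrc2, a subunit of complex III, fell 1.42-fold and Tfam, which packs mitochondrial DNA, 1.33-fold. In the proteasome list 3 of 19 fell and 2 rose, with 1 rise called without 0 h replicate 2 or either array at 10 h. The heat shock list had 4 falls and no rise among 16 genes, the deepest at −0.22, and 2 falls without 0 h replicate 1 or either array at 10 h. Hspd1, the mitochondrial chaperonin, was among the 4 (1.15-fold).

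**Figure D3:**
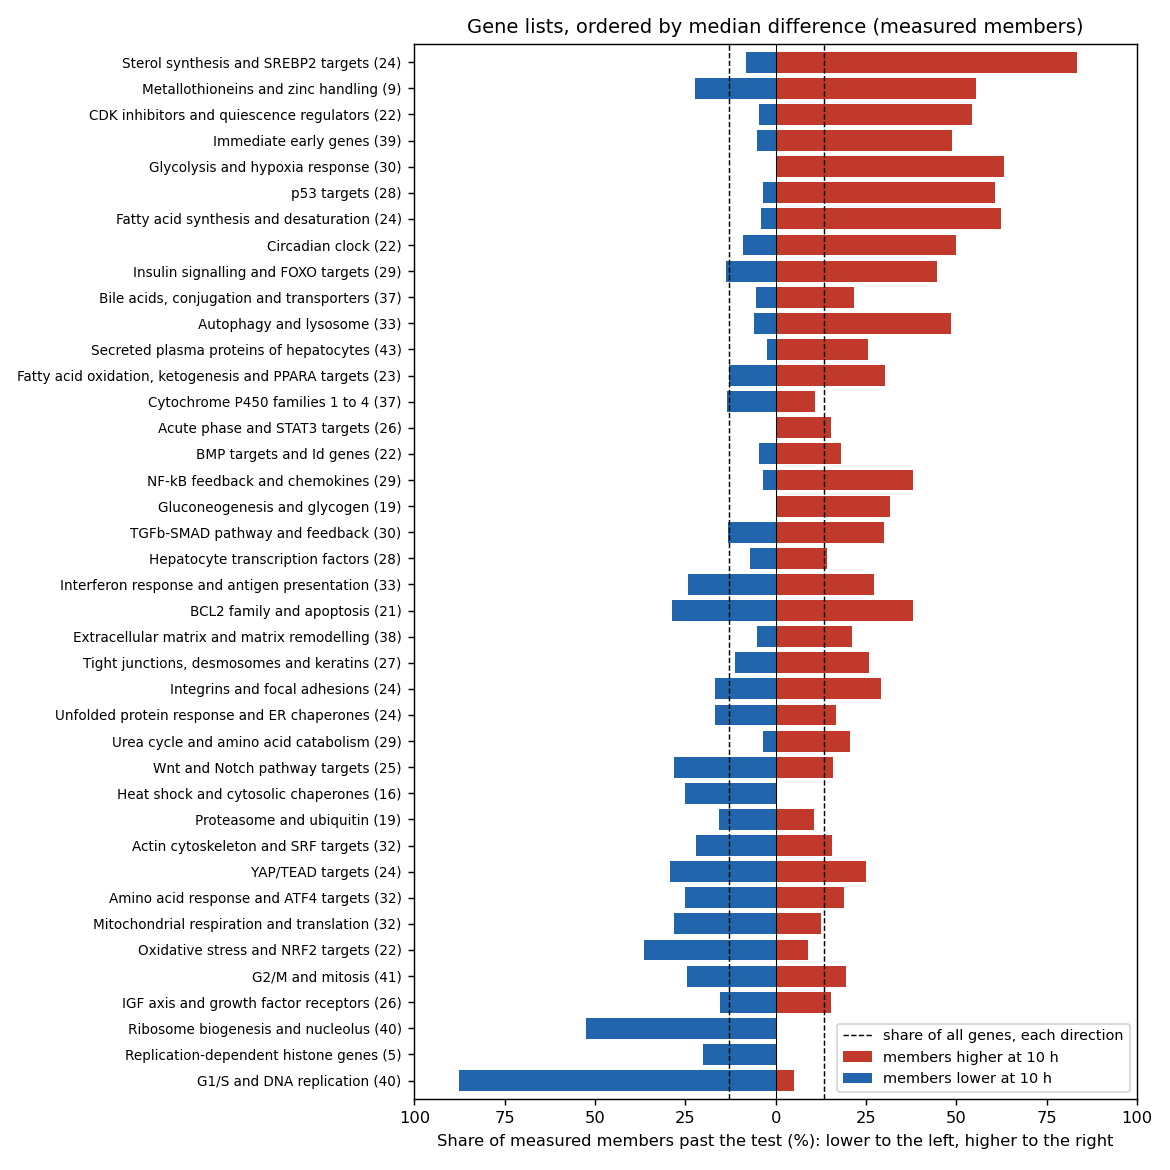
Share of measured members of each of 40 gene lists that were higher (right, red) or lower (left, blue) at 10 h than at 0 h in untreated cells by limma, with lists ordered by their median difference and dashed lines at the shares over all genes (13.3% higher and 12.8% lower). The sterol list has the highest share of rises (20 of 24) and the G1/S list the highest share of falls (35 of 40).

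Immediate early genes, which serum switches on within minutes, stood higher after 10 h more. Of 39 measured, 19 rose and 2 fell, with a median of 0.34, and 1 fall was called without 0 h replicate 1 or either array at 10 h. Fosl2, a subunit of AP-1, rose from 8.24 and 8.45 at 0 h to 9.36 and 9.32 at 10 h (1.99-fold, adjusted p = 3.75e-09). Egr1, a zinc finger factor, rose from 8.67 and 8.70 at 0 h to 9.52 and 9.69 at 10 h (1.90-fold), and Fos from 6.75 and 6.72 at 0 h to 7.58 and 7.66 at 10 h (1.84-fold). Maff, a small MAF factor, rose 1.85-fold, Ier3 1.42-fold and Dusp6, a phosphatase that ERK activity induces, 1.28-fold. Myc stood at 10.04 and 10.13 at 0 h and 9.93 and 9.99 at 10 h and did not pass the test (adjusted p = 0.124). At 1 h, the log2 differences from 0 h of Fos, Fosl2 and Maff were −0.01, 0.04 and −0.03.

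Insulin signalling holds the FOXO factors out of the nucleus. In a mixed list of 29 insulin signalling genes and FOXO targets, which were not counted apart, 13 rose and 4 fell, with a median of 0.21. The 12 others differed by −0.18 to 0.32 without passing the test. Txnip, which restrains glucose uptake, rose from 9.64 and 9.71 at 0 h to 10.93 and 10.90 at 10 h (2.36-fold, adjusted p = 3.93e-11). Ddit4, an inhibitor of mTORC1, rose from 10.89 and 10.96 at 0 h to 11.74 and 11.75 at 10 h (1.76-fold), and Sesn3, which acts on the same pathway, 1.56-fold. Foxo3, the gene of a FOXO factor, rose 1.63-fold, whereas Sesn1, a relative of Sesn3, fell 1.31-fold. Without either array at 10 h, 2 members were called lower. Among 26 genes of the IGF axis and growth factor receptors 4 rose and 4 fell: Ghr, the growth hormone receptor, rose from 6.44 and 6.10 at 0 h to 7.17 and 7.28 at 10 h (1.94-fold), while Il6ra, the interleukin-6 receptor, fell from 7.13 and 7.14 at 0 h to 6.45 and 6.34 at 10 h (1.67-fold), and Gab1, an adaptor of receptor kinases, 1.51-fold.

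Autophagy and lysosome genes rose in 16 of 33 cases and fell in 2, with a median of 0.20. Neu1, the lysosomal sialidase, rose from 7.22 and 7.46 at 0 h to 8.66 and 8.65 at 10 h (2.49-fold, adjusted p = 9.36e-11), Gabarapl1, an autophagosome protein, 1.55-fold, and the cathepsins Ctsa and Ctsd 1.41-fold and 1.34-fold. Without 0 h replicate 1 or 10 h replicate 2, none was called lower. Of 28 p53 targets 17 rose and 1 fell (2 without 10 h replicate 1), with a median of 0.30. Pmaip1, the BH3-only gene NOXA, rose from 9.84 and 9.86 at 0 h to 10.79 and 10.86 at 10 h (1.96-fold), and Perp, an effector of apoptosis, 1.40-fold. Cdkn1a, Ccng1, Btg2 and Sesn3 also sit in this list, so it is not independent of the lists above. In the list of the BCL2 family and further apoptosis genes 8 of 21 rose and 6 fell: Apaf1, the core of the apoptosome, rose 1.54-fold, and Bid 1.43-fold. Without 0 h replicate 2, 5 members were called higher. The survival gene Mcl1 fell from 11.81 and 11.77 at 0 h to 11.43 and 11.42 at 10 h (1.29-fold).

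The amino acid and endoplasmic reticulum stress programmes had no common direction. Of 32 genes of the amino acid response and targets of ATF4, the factor of amino acid shortage, 6 rose and 8 fell. Vldlr rose from 8.59 and 8.52 at 0 h to 9.48 and 9.37 at 10 h (1.82-fold), Slc38a2, an amino acid transporter, 1.29-fold, and Ppp1r15a, a phosphatase subunit that restores translation, 1.61-fold, whereas Atf5 fell 1.61-fold and Asns, asparagine synthetase, 1.18-fold. Of 24 genes of the unfolded protein response 4 rose and 4 fell, with 2 rises called without either 0 h array or 10 h replicate 1. Pdia4, a disulfide isomerase, rose 1.35-fold and Herpud1, a degradation factor, fell 1.25-fold.

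Antioxidant genes fell more often than they rose. Of 22 measured genes of oxidative stress and NRF2 targets, 8 fell and 2 rose, with a median of −0.06. The 2 rises became 0 without 0 h replicate 1 and 1 without either array at 10 h. Nqo1, a quinone reductase, fell from 9.79 and 9.70 at 0 h to 8.82 and 8.92 at 10 h (1.83-fold, adjusted p = 9.99e-10). Gclm and Gclc, the subunits of the enzyme that limits glutathione synthesis, fell 1.69-fold and 1.51-fold, Gsr, glutathione reductase, 1.60-fold, and Srxn1, sulfiredoxin, 1.48-fold.

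The P450 list moved about as often as genes overall. Of its 37 measured genes 4 rose (10.8%) and 5 fell (13.5%), with 2 rises called without 0 h replicate 2 or 10 h replicate 1, and only 4 of the 37 lay above the median gene level. Cyp1a1, a P450 that planar aromatic compounds induce through the aryl hydrocarbon receptor, stood at 13.09 and 12.95 at 0 h and 11.50 and 11.69 at 10 h, a 2.69-fold fall (adjusted p = 1.53e-09). Cyp1b1 fell to a dim level, from 6.00 and 6.22 at 0 h to 4.37 and 4.38 at 10 h, with 2 of its 3 probe sets called lower and the third at 0.24 without a call. Cyp2s1 fell from 7.07 and 6.87 at 0 h to 5.58 and 5.57 at 10 h (2.63-fold). Cyp1a2, a close relative of Cyp1a1, was dim throughout, at 4.01 and 4.42 at 0 h and 4.67 and 4.10 at 10 h, and did not pass the test (adjusted p = 0.728). Ahr, the receptor gene, was 1.25-fold higher, and no list of the receptor's targets was counted.

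Genes of plasma proteins rose more often than they fell. Of 43 secreted plasma proteins 11 rose and 1 fell, with a median of 0.19, and 9 of the 43 lay above the median gene level. Without 0 h replicate 2, 7 members were called higher, and without that array or 10 h replicate 1 none was called lower. Cfi, complement factor I, rose from 10.42 and 10.27 at 0 h to 11.28 and 11.39 at 10 h (1.99-fold, adjusted p = 3.04e-10), and Selenop, the selenium carrier, from 11.57 and 11.52 at 0 h to 12.40 and 12.40 at 10 h (1.81-fold, adjusted p = 2.02e-11). Alb rose from 11.92 and 11.88 at 0 h to 12.46 and 12.35 at 10 h (1.42-fold). Proc, protein C, rose 2.03-fold from a dim start of 5.28. Fgb, the fibrinogen beta chain, rose from 7.54 and 7.48 at 0 h to 8.87 and 8.82 at 10 h (2.53-fold). It also belongs to the acute phase list, in which 4 of 26 genes rose (15.4%, near the 13.3% of all genes) and 0 fell, with 1 fall called without 0 h or 10 h replicate 1. Hepatocyte transcription factors were also near the shares over all genes: of 28, 4 rose (14.3%) and 2 fell (7.14%), with 1 fall called without 10 h replicate 1. Nr2f2, which encodes COUP-TFII, fell 1.54-fold.

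Transport and conjugation genes were higher in 8 of 37 cases (21.6%) and lower in 2, with a median of 0.21. Without 0 h replicate 1 none was called lower, and without either array at 10 h 1 was. Slco1b2, a hepatocyte uptake transporter of organic anions, rose from a dim start, from 4.83 and 4.65 at 0 h to 6.60 and 6.33 at 10 h (log2 difference 1.73 ± 0.23 SE, adjusted p = 7.99e-06), and 2 of its 5 probe sets were called. Gstt1, a glutathione transferase, rose from 7.17 and 7.06 at 0 h to 8.28 and 8.34 at 10 h (2.29-fold), Abcc2, the canalicular exporter MRP2, 1.64-fold, and Ephx1, the microsomal epoxide hydrolase, 1.53-fold. Ugt2b34, a glucuronosyltransferase, fell 1.40-fold, and without 0 h replicate 1 its difference was −0.36 and did not pass (adjusted p = 0.0630). In amino acid breakdown 6 of 29 genes rose and 1 fell (0 without 10 h replicate 1); Fah, the last enzyme of tyrosine breakdown, rose from 7.45 and 7.44 at 0 h to 8.49 and 8.31 at 10 h (1.94-fold). For sugar storage, 6 of 19 genes rose and 0 fell: Ppp1r3c and Ppp1r3b, which bring protein phosphatase 1 to glycogen, rose 2.56-fold and 1.80-fold, Ppp1r3c from 8.60 and 8.52 at 0 h to 9.96 and 9.87 at 10 h, and Crem, a cAMP-responsive factor, 1.90-fold.

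The clock genes were higher in 11 of 22 cases and lower in 2, with a median of 0.22. Without either array at 10 h 7 were called higher, and without 0 h or 10 h replicate 2, 1 was called lower. Arntl, which encodes the clock factor BMAL1, rose from 7.35 and 7.40 at 0 h to 8.03 and 7.93 at 10 h (1.52-fold), and Per1, one of its targets and repressors, from 6.43 and 6.56 at 0 h to 7.01 and 7.15 at 10 h (1.5-fold). Cry1, another repressor, fell from 6.93 and 6.95 at 0 h to 6.42 and 6.24 at 10 h (1.53-fold).

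In the immune lists, NF-kB feedback genes and chemokines rose in 11 of 29 cases and fell in 1. Nfkb2, the p100 subunit, rose from 7.94 and 7.97 at 0 h to 8.78 and 8.87 at 10 h (1.83-fold), Cxcl16 1.63-fold, and Icam1, an adhesion molecule, 1.40-fold. Ltb, lymphotoxin beta, which is outside the list, rose from 10.01 and 9.82 at 0 h to 11.48 and 11.45 at 10 h (2.92-fold, adjusted p = 6.76e-10). Interferon and antigen presentation genes split, with 9 of 33 higher and 8 lower; Oas1a, an antiviral synthetase, rose 1.42-fold, the interferon-induced GTPase genes Gbp3 and Gbp2 fell 2.09-fold and 1.94-fold, and Xaf1 fell from 8.71 and 8.66 at 0 h to 7.93 and 7.88 at 10 h (1.72-fold). Their values stand beside those of the 12 leukocyte markers, whose mean level was 4.83 to 4.84 at 0 h and 4.75 to 4.78 at 10 h, 1 of them, Csf1r, being called, from 7.06 and 7.01 at 0 h to 5.95 and 5.88 at 10 h. Steap4, a metalloreductase that inflammation induces in liver, rose from a dim start, from 4.68 and 5.13 at 0 h to 6.21 and 6.69 at 10 h (2.92-fold).

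Of the 4 Id genes, whose products block helix-loop-helix factors and which bone morphogenetic proteins switch on, 3 rose. Id3 stood at 8.95 and 9.19 at 0 h and 10.77 and 10.68 at 10 h, a 3.15-fold rise (log2 difference 1.65 ± 0.07 SE, adjusted p = 1.06e-12). Id1 stood at 10.91 and 10.95 at 0 h and 11.85 and 11.85 at 10 h (1.89-fold; adjusted p = 1.62e-11) and Id2 at 9.71 and 9.63 at 0 h and 10.52 and 10.62 at 10 h (1.87-fold; adjusted p = 3.97e-07). At 6 h the log2 differences from 0 h were 1.20 for Id3, 0.76 for Id1 and 0.08 for Id2. Id4 was dim, at 4.48 and 4.52 at 0 h and 4.68 and 4.59 at 10 h, and did not pass the test (adjusted p = 0.584). In the whole list of 22 BMP targets 4 rose and 1 fell, the 3 Id genes among the 4, with no fall called without 0 h replicate 2 or either array at 10 h. Of 30 genes of the TGFβ pathway 9 rose and 4 fell: Klf11 rose 1.52-fold and Klf10 1.36-fold, both TGFβ-inducible factors, and Tgfbr1, a TGFβ receptor, fell from 9.68 and 9.70 at 0 h to 9.30 and 9.20 at 10 h (1.36-fold). Skil, the SMAD corepressor SnoN, differed by −0.20 (adjusted p = 0.0385), a call that was lost without 0 h replicate 1 (−0.12, adjusted p = 0.405), without 10 h replicate 1 (−0.22, adjusted p = 0.101) and without 10 h replicate 2 (−0.19, adjusted p = 0.163). Without 10 h replicate 1, 2 members of the list were called lower.

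Genes of YAP and TEAD, which respond to cell spreading and density, rose in 6 and fell in 7 of 24 cases, with 4 falls called without 0 h replicate 1 or 10 h replicate 2. Ccn2, connective tissue growth factor, fell from 10.41 and 10.50 at 0 h to 9.60 and 9.72 at 10 h (1.73-fold, adjusted p = 1.67e-09), and Nuak2, a kinase, 1.43-fold, whereas Ankrd1 rose from 8.80 and 8.71 at 0 h to 9.18 and 9.26 at 10 h (1.38-fold). Of 32 actin and SRF genes 5 rose and 7 fell (2 rises without 0 h replicate 1, 3 without 10 h replicate 1 and 4 falls without 0 h replicate 2), among them Fhl1, from 6.68 and 6.69 at 0 h to 5.62 and 5.49 at 10 h (2.18-fold), and Tagln2 (1.37-fold). The matrix list had 8 rises and 2 falls in 38 genes, with 5 rises without 0 h replicate 1: Plat, tissue plasminogen activator, rose 1.38-fold, Ecm1 1.36-fold and Fn1, fibronectin, 1.21-fold. Of 24 integrin and adhesion genes 7 rose and 4 fell, and Itgb4, a laminin receptor subunit, went up from 6.02 and 6.27 at 0 h to 7.13 and 7.23 at 10 h (2.05-fold). Of 27 junction and keratin genes 7 rose and 3 fell: Epcam rose from 9.56 and 9.41 at 0 h to 10.24 and 10.16 at 10 h (1.64-fold), Pkp2, a desmosome protein, 1.56-fold, and Cgn, cingulin of tight junctions, fell 1.39-fold.

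Among Wnt and Notch targets 4 of 25 rose and 7 fell, with 2 rises called without 0 h replicate 1. Lgr5, the R-spondin receptor and a target of Wnt signalling, fell from 11.16 and 11.21 at 0 h to 10.28 and 10.35 at 10 h (1.83-fold, adjusted p = 3.58e-09), Tcf7l2, a nuclear partner of beta-catenin, from 8.81 and 8.95 at 0 h to 7.99 and 7.97 at 10 h (1.87-fold), and Rnf43, a feedback gene, 1.22-fold. Jag1, a Notch ligand, rose 1.34-fold.

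Other motifs were searched in the lists they are known for. Some were more frequent there than among all genes, also in lists without a common direction, and others were rare. The CArG box of SRF was in 10 of 28 actin and SRF genes (35.7%, against 1.62% of all genes), the ATF4 core TGATGNAA in 7 of 25 genes of the amino acid response and ATF4 list (28.0%, against 3.91%) and the mitotic element TTTGAA in 13 of 33 G2 and mitosis genes (39.4%, against 18.3%), and none of these 3 lists had a common direction. The E-box CACGTG was in 5 of 18 clock genes (27.8%, against 6.86%) and the D-box TTANGTAA in 1 (5.56%, against 2.44%). The FOXO site GTAAACA was in 2 of 23 genes of the insulin and FOXO list (8.70%, against 3.54%). Of 28 immediate early genes, 2 held the CRE TGACGTCA (7.14%, against 1.77%) and 0 the AP-1 site TGANTCA, which 7.82% of all genes held. Both strands were searched, and a window without a match says only that these letters are not in it.

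Several of the deepest falls among genes above the median level belong to none of the lists. Zkscan8 and Zfp467, zinc finger proteins, fell 3.14-fold and 2.87-fold, Zkscan8 from 7.35 and 7.41 at 0 h to 5.64 and 5.83 at 10 h and Zfp467 from 8.79 and 8.82 at 0 h to 7.22 and 7.35 at 10 h. Pag1, a membrane adaptor that recruits the kinase CSK, fell from 8.67 and 8.72 at 0 h to 7.07 and 7.20 at 10 h (2.95-fold), and Lancl2 from 10.30 and 10.27 at 0 h to 8.73 and 8.83 at 10 h (2.84-fold, adjusted p = 1.94e-12). Htra1, a secreted serine protease, stood at 8.10 and 7.45 at 0 h and 6.09 and 6.40 at 10 h, a 2.89-fold fall in which the duplicates at 0 h were apart by more than those of the other genes named here. Eef1akmt2, a methyltransferase, Rmdn2, Senp8, a NEDD8 protease, Trp53rkb, Znrd1as and Tshz1 fell by 2.93, 2.82, 2.78, 2.76, 2.72 and 2.69 times. The falls of Zkscan8, Pag1 and Trp53rkb rest on 1 called probe set each. The 3 probe sets of Zkscan8 differed by −1.65 to −0.12, the 4 of Pag1 by −1.56 to 0.11 and the 2 of Trp53rkb by −1.47 to −0.28.

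The untreated arrays in between show when the change built up, although all comparisons with 0 h share the 0 h arrays. By limma, 34 genes (0.187%) differed from 0 h at 1 h, 1485 (8.16%) at 3 h and 3761 (20.7%) at 6 h. Between 6 h and 10 h, 1124 genes (6.18%) differed, 505 of them higher and 619 lower. The sterol genes moved early: the median of the list was 0.23 at 1 h, 0.79 at 3 h, 1.14 at 6 h and 0.88 at 10 h, and 7 of its 24 genes were lower at 10 h than at 6 h and 1 was higher. The medians of the G1/S list were −0.06, −0.11, −0.17 and −0.44, and those of the glycolysis and hypoxia list 0.00, 0.04, 0.21 and 0.33. In the nucleolar list 13 of 40 genes were lower at 10 h than at 6 h and none was higher. Between 6 h and 10 h the sterol median thus came down while the medians of the other 2 lists moved further from 0.

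**Figure D4:**
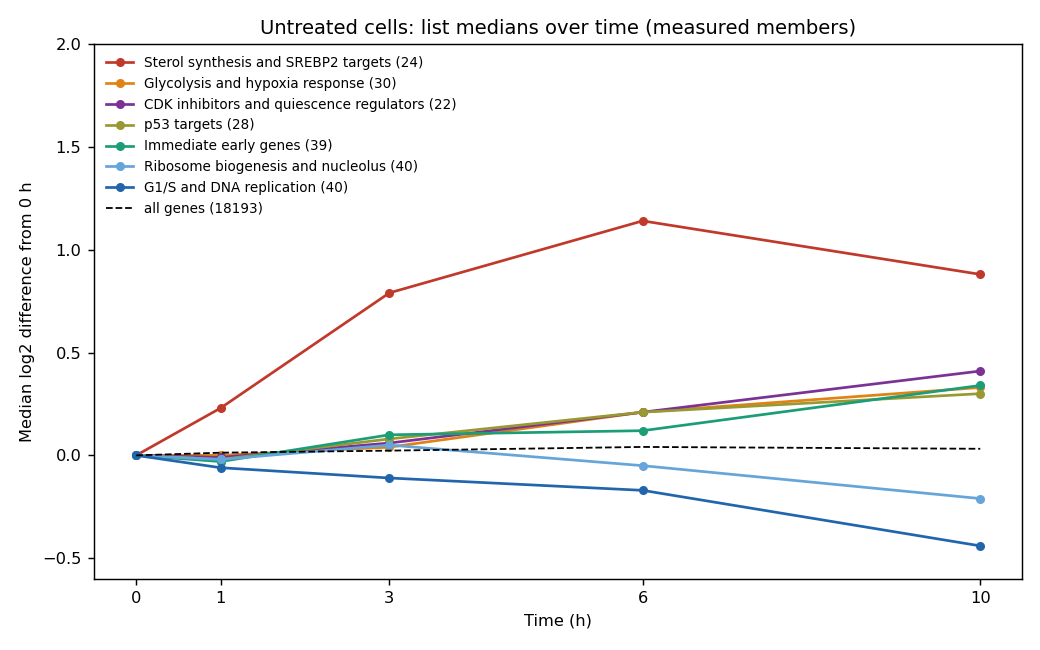
Median log2 difference from 0 h (y axis) of the measured members of 7 gene lists and of all genes at 1, 3, 6 and 10 h (x axis) in untreated cells, 2 arrays per time. The sterol median reaches 1.14 at 6 h and is 0.88 at 10 h, whereas the G1/S median goes from −0.17 to −0.44 in the same interval.

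The change over 10 h in cells given TGFβ1 rests on other arrays, and most of the change without it had the same sign there. In treated cells 5099 genes (28%) differed between 10 h and 0 h. Of the 4742 genes called in untreated cells, 4365 had the same sign in treated cells and 3323 (70.1%) were also called in the same direction, and the Pearson correlation of the 2 changes across all genes was 0.673, a description over genes, which are not independent replicates. Mt2 fell by 4.17 in treated cells on the log2 scale and Mt1 fell by 2.79, and the differences from the untreated change, 0.22 ± 0.34 and −0.37 ± 0.28 SE, did not pass the test. Mvd, Fdps, Dhcr7, Bnip3 and Cyp1a1 changed by 1.46, 1.31, 1.31, 2.28 and −1.43 in treated cells. For none of these 5 did the change differ past the test between treated and untreated cells.

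The change itself differed between treated and untreated cells in 707 genes (3.89%), with 340 (1.87%) above 0 and 367 (2.02%) below 0 for treated minus untreated. Fewer were called without 1 array: 365 without treated 10 h replicate 1, 423 without treated 0 h replicate 1, 428 without either untreated 10 h array and 432 without untreated 0 h replicate 2. Several rises of untreated cells were absent or smaller with TGFβ1. Slco1b2, up by 1.73 without it, was dim in treated cells, at 4.55 and 4.88 at 0 h and 4.34 and 3.94 at 10 h, a change of −0.58 (adjusted p = 0.0759; difference −2.30 ± 0.33, SE, adjusted p = 1.64e-04). Fgb, up by 1.34, changed by 0.17 in treated cells (difference adjusted p = 9.25e-06), and Ppp1r3c, up by 1.35, by 0.36 (9.68e-05). Aldoc and Ankrd37 rose in both, by 1.52 and 1.43 in treated cells, less than in untreated cells (difference adjusted p = 1.97e-06 and 0.0150).

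Other genes parted in the opposite sense. Ccn2, which fell by 0.79 in untreated cells, rose by 1.36 in treated ones, from 10.36 and 10.44 at 0 h to 11.78 and 11.74 at 10 h (difference 2.15 ± 0.08, SE, adjusted p = 2.95e-13). Skil rose by 1.48 in treated cells (difference adjusted p = 1.36e-09), and Igfbp3, an IGF carrier that was higher by 0.26 in untreated cells (0.24 and no longer called without 0 h or 10 h replicate 2), rose by 1.64 (1.66e-08). Htra1 changed by −0.08 in treated cells (adjusted p = 0.784; difference 9.63e-05). Tk1 and Mcm5 fell further with TGFβ1, to log2 differences of −1.94 and −1.17 against −1.32 and −0.89 (difference adjusted p = 0.00102 and 0.0173). Over all genes, 77 of the 707 were called in opposite directions in the 2 conditions. In the list of YAP and TEAD targets the change differed in 8 of 24 genes, all 8 higher with TGFβ1, and in the matrix list in 7 of 38, all 7 higher, whereas in the sterol list it differed in 3 of 24 and in the glycolysis and hypoxia list in 5 of 30, all of them lower.

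**Figure D5:**
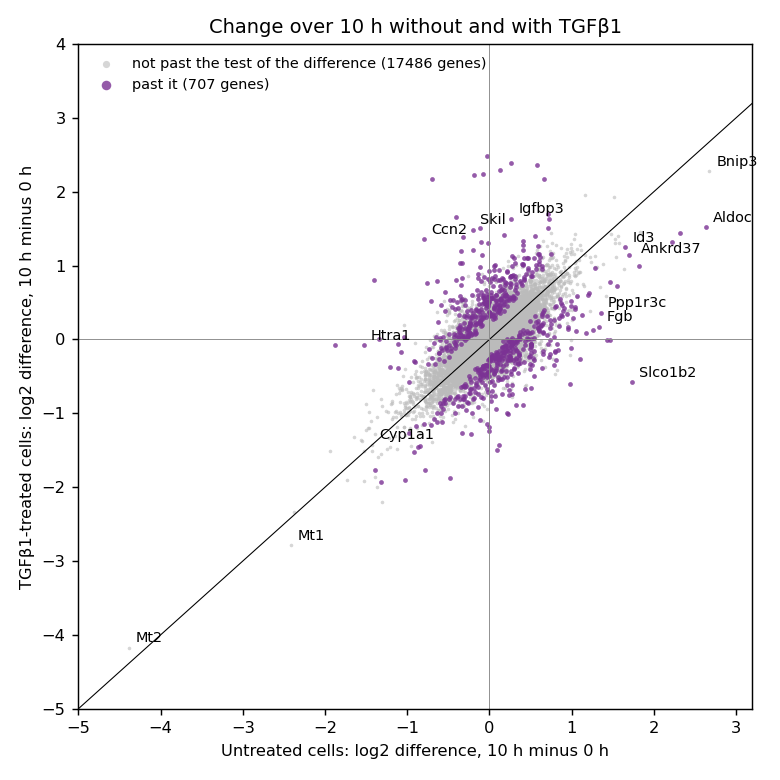
Log2 difference between 10 h and 0 h in TGFβ1-treated cells (y axis) against that in untreated cells (x axis), 1 point per gene, with the line of equal change and the 707 genes whose change differed by limma in purple. Mt2, Mt1, Bnip3 and Cyp1a1 lie near the line, and Slco1b2, Fgb, Htra1, Ccn2 and Skil lie far from it.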

How the data were processed

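Expression in Hepa1-6 cells was measured on 20 Affymetrix arrays. The authors deposited 1 table of 45037 probe sets on a log2 scale, made with RMA per the submitters' processing notes. RMA corrects the background, brings all arrays to one distribution and summarises the probes of a set, so a change shared by most transcripts would not show. The deposited log2 values were used as they stand, and the array medians were 5.15 to 5.21.

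Of the probe sets, 34945 named 1 gene in the platform annotation, 932 named several and 9160 none. The set with the highest mean over all arrays stood for each of 18193 genes, of which 48 have symbols not in the RefSeq table and keep the name of the annotation. Groups came from the sample titles. limma 3.58.1 in R 4.3.3 (lmFit with 1 mean per group, eBayes with a trend, 10 residual degrees of freedom) gave moderated tests, adjusted by Benjamini-Hochberg over all genes, and was tested on simulated data. The alternatives were other normalizations, variance models, baselines, probe set rules and fits without single arrays.

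The comparison, its gene lists and tests were chosen with earlier results of these data known. Named genes are the 15 largest rises and 15 largest falls above the median level, up to 4 members of each list with the lowest adjusted p, and some preset members. Other preset members are not named, so the named genes lean towards those past the test. Abcg1, Csf1r, Cyp1a2, E2f1, Epor, Foxo3, Gbp2, Gbp3, Id4, Idi1 and Perp were named after their values had been seen. Promoter windows are the 250 bases before the start in the RefSeq table (GRCm38.p6), the 50 bases after it being left out.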

Additional observations from a re-analysis of the deposited data

Results flagged for a closer look

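The change between 0 h and 10 h differed between TGFβ1-treated and untreated cells in 44 of the genes named in the text, by the limma term for the difference of the 2 changes with Benjamini-Hochberg adjustment over all genes. Values are the log2 change in treated cells minus that in untreated cells. Negative differences were found for these genes that rose in untreated cells: Slco1b2 −2.30, Fgb −1.17, Aldoc −1.11, Ppp1r3c −0.99, Ankrd37 −0.89, Ltb −0.83, Acss2 −0.83, Ghr −0.79, Pmvk −0.69, Gstt1 −0.59, Alb −0.57, Tm7sf2 −0.56, Fos −0.56, Nfkb2 −0.53, Oas1a −0.51, Slc39a4 −0.47, Cfi −0.47, E2f1 −0.44, Id3 −0.41, Elovl6 −0.36, P4ha1 −0.33, Selenop −0.30, Gabarapl1 −0.29, Ctsa −0.24 and Ldha −0.19. Negative differences were also found for these genes that fell in untreated cells: Ugt2b34 −1.39, Tk1 −0.62, Nqo1 −0.59, Aurkb −0.34, Mcm5 −0.28 and Rrm2 −0.26. Differences above 0 were found for these genes that rose in untreated cells: Ahr 0.43, Klf10 0.44, Fn1 0.58, Ankrd1 0.63, Plat 0.64 and Igfbp3 1.37. Differences above 0 were also found for these genes that fell in untreated cells: Nuak2 0.38, Angptl4 0.60, Htra1 1.45, Skil 1.69 and Ccn2 2.15. For the genes not past the test in untreated cells, the differences were Afp −0.51 and Myc 0.60. Ccn2 and Skil were called in opposite directions in the 2 conditions, the call of Skil in untreated cells being one that single arrays decided. No group compared here has the 4 samples that a test for single stray arrays needs.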

How the results depend on the processing

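Leaving out each array in turn gave 3527 to 3755 changed genes in untreated cells, 1822 to 1945 higher and 1678 to 1920 lower, against 4742, 2411 and 2331. Testing every probe set on its own gave 7508 changed probe sets, 4129 of them lower, of 45037. The count of genes whose change differed between treated and untreated cells, 707, was 352 without a variance trend and 365 to 586 without 1 array. The replicate numbers were not taken as pairs, since the deviations of same-numbered arrays correlated at 0.067 between the untreated 0 h and 10 h groups. Over all 45 pairs of groups this correlation ran from −0.154 to 0.207 and was over 0.1 in 9, so a weak replicate effect elsewhere in the series is not excluded. With the replicate block 4878 genes were called, 4712 of them also without it, in no case in the other direction. With the treated 0 h arrays as the baseline 4746 genes were called, 4033 of them in the same direction as with the untreated ones and 0 in the other. The named genes were taken largely from those past the test, so their share past it is no result. Of the 187 genes named in the text, 182 passed the test, and 175 of these kept their direction and their call under all 16 alternatives in which they were fitted. The others were Apob, E2f1, Epor, Igfbp3, Skil, Slc30a1 and Ugt2b34, none of which changed sign. Cyp1a2, which was not called, differed by −0.12 to 0.45 without 1 array. Insig1, which was not called either, was called with the treated 0 h arrays (0.37, adjusted p = 0.00196) or all arrays at 0 h (0.29, adjusted p = 0.00762) as baseline. Of the 1280 recomputed counts of list members, 156 moved by over 1.5 times, most of them counts of few genes. Of the 119 named genes with several probe sets, 98 had all probe sets of 1 sign, though not always all called, and in 0 was a probe set called in the other direction. In the other 21, Acss2, Arntl, Cgn, Crem, Cyp1b1, E2f1, Elovl6, Fhl1, Ghr, Hmgcs1, Id4, Msmo1, Mt1, Nek2, Nfkb2, Pag1, Slc30a1, Slc38a2, Slco1b2, Srxn1 and Steap4, at least 1 dimmer probe set had the other sign without a call. With 2 arrays a group, the number of arrays limits the precision.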

Other observations

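The genes in this paragraph and the next were picked after their values had been seen, from those past the test, and no list of them was tested. Kdm3a and the sterol genes were already counted in their lists above. Beside the replication list, several genes of DNA repair fell: Hus1, a subunit of the checkpoint clamp, from 9.22 and 9.25 at 0 h to 8.04 and 8.06 at 10 h (2.27-fold), Gen1, a nuclease that cuts Holliday junctions, from 7.67 and 7.68 at 0 h to 6.62 and 6.45 at 10 h (2.20-fold), and Mdc1, a scaffold at DNA breaks, from 9.37 and 9.36 at 0 h to 8.33 and 8.46 at 10 h (1.96-fold). Cirbp, the RNA-binding protein that mild cold induces, fell from 8.01 and 8.17 at 0 h to 6.81 and 7.01 at 10 h (2.27-fold). In each of these genes both late arrays lay below both early ones.

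Among the rises, Kdm5b and Kdm3a, histone demethylases that need oxygen, went from 8.87 and 8.89 at 0 h to 9.95 and 9.79 at 10 h (1.98-fold) and from 8.67 and 8.72 at 0 h to 9.64 and 9.68 at 10 h (1.94-fold). Lipa, the lysosomal lipase that frees cholesterol from its esters, rose from 7.80 and 7.80 at 0 h to 8.69 and 8.81 at 10 h (1.93-fold), and Ctsh, a lysosomal cathepsin, from 9.64 and 9.48 at 0 h to 10.52 and 10.48 at 10 h (1.92-fold). Tcn2, the carrier of vitamin B12, rose from 9.03 and 9.04 at 0 h to 10.15 and 10.03 at 10 h (2.08-fold). Of the sterol genes not yet named, Msmo1, Hsd17b7, Cyp51, Fdft1 and Lss rose by 1.38, 1.29, 1.22, 1.16 and 1.05.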
